A study of Mus musculus with 24 samples.

Results

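The comparison described here sets 6 RNA-seq libraries of Ninj1 knockout macrophages stimulated with Pam3 (KO_Pam3) against 6 libraries of wild-type macrophages given the same stimulus (WT_Pam3). They are 12 of the 24 libraries of a study of primary bone marrow-derived macrophages, which are macrophages grown from mouse bone marrow in culture. The other 12 are 6 unstimulated wild-type (WT_media) and 6 unstimulated knockout (KO_media) libraries. Wild-type mice were C57BL/6, the knockout mice are labelled Ninj1KO with no allele or strain named, and the sex is given as male for the wild-type libraries and as NA for the knockout ones. The labels name neither the dose nor the duration of Pam3, nor the deleted part of the gene. Members were taken by title alone, and the question is which transcripts differ between the genotypes once the cells have been stimulated. Libraries were made with a TruSeq RNA kit, which selects polyadenylated RNA, and sequenced as single-end reads. Nothing in the labels ties a library to an animal or a culture, and the p-values therefore reflect the variation among the libraries at hand, which may be technical.

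NINJ1 (ninjurin-1) is a small plasma membrane protein that assembles into long oligomers and ruptures the membrane of a dying cell, after gasdermin D or other triggers have already killed it. Pam3 compounds are synthetic bacterial-type lipopeptides sensed by TLR2 together with TLR1, which signal through MYD88 to NF-kB and prime macrophages to make inflammatory cytokines. Macrophages also clear dead cells and microbes with uptake receptors, and break the cargo down in lysosomes, acid organelles whose hydrolases and membrane proteins are controlled together by the MiT/TFE transcription factors.

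The 12 libraries held 32.8 to 40.3 M counts. Most defining macrophage genes were abundant in all of them. Levels are given in CPM, read counts scaled to a common library size after trimmed-mean (TMM) normalisation. They were 4660 to 6450 for Adgre1 (F4/80), 1950 to 2120 for Csf1r and 19400 to 25200 for Lyz2. Cd68, Spi1 and Itgam were at 1190 to 1840, 800 to 1230 and 275 to 346 CPM. Mertk, also a defining gene, was less abundant, at 19.3 to 37.3 CPM. The data go against the label of male sex: Xist, the transcript of the inactive X chromosome, was at 233 to 662 CPM over the 12 libraries of both genotypes, the Y-linked Eif2s3y, Kdm5d and Uty had no count in any, and Ddx3y had at most 0.104 CPM. Xist did not differ between the genotypes past the test (log2 0.07, adjusted p = 0.87). WT_Pam3 replicate 5 stood apart: 156 of the 3738 genes at 50 CPM or more lay at least 2-fold from the median of the other 5 WT_Pam3 libraries, against 0 or 1 in each of the other 11. Its gap to them followed the exonic length of the genes, from a median log2 of 0.40 in the shortest of 5 length classes to -0.42 in the longest, with a Spearman rho of -0.58 across 11218 genes, which are not independent replicates. KO_Pam3 replicate 6 had a weaker slope of the same sign (rho -0.42). Results are given with WT_Pam3 replicate 5 in, and again without it where that changes the call and for part of the values that moved. Log2 values printed only with it can move as well. Leaving it out took the chemokine gene Ccl8 from -0.52 to -0.40, Mtus2 from -1.20 to -1.04 and the integrin gene Itgb7 from 0.53 to 0.63. The cause of the length slope was not tested.

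The 6 libraries of a group may not be independent. Each title carries a sample number, and in the order of these numbers the first 3 libraries of WT_Pam3 are replicates 2, 3 and 4 and the last 3 replicates 1, 5 and 6, while KO_Pam3 splits into replicates 2, 5 and 6 and replicates 1, 3 and 4. Some genes took separate levels in such sets of 3. Across 6649 genes of at least 10 CPM the log2 difference between the last and the first set had a Pearson r of 0.54 between KO_media and KO_Pam3 and of 0.41 between WT_media and WT_Pam3 (without replicate 5), and of 0.09 to 0.20 between groups of different genotype. What the libraries of a set have in common, such as an animal or a culture, is not given in the labels. A fit of counts summed per set, with 2 sums against 2, was therefore added after seeing the data, for KO_Pam3 against WT_Pam3 only. Its calls are given beside many of the results as those of the set sums. The media and interaction calls have no such counterpart.

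**Figure D1:**
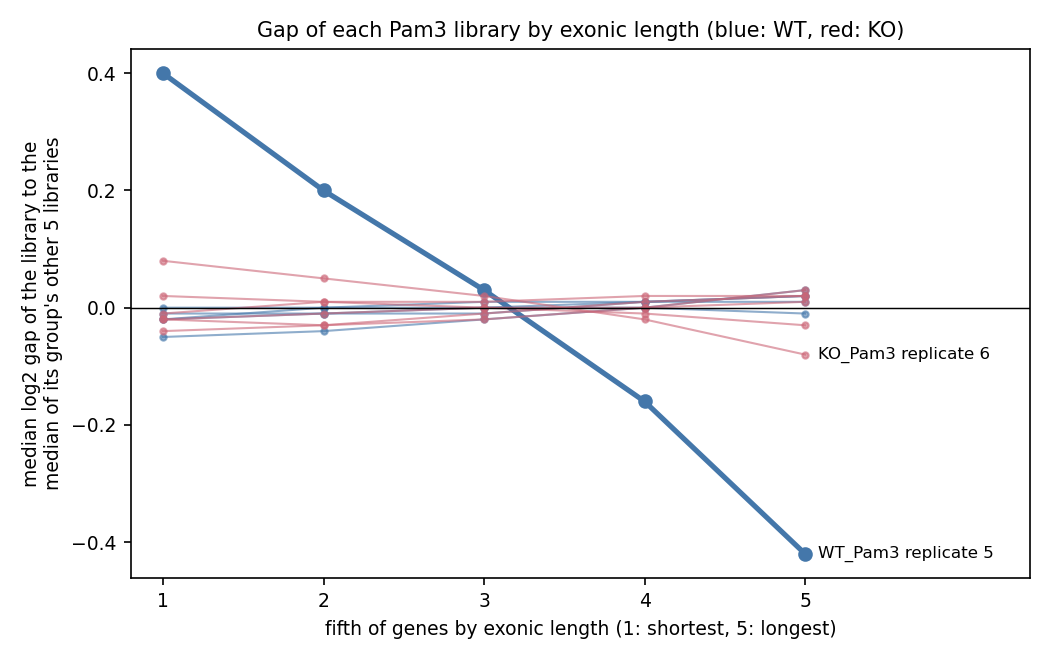
Median log2 gap (vertical axis) of each of the 12 libraries to the median of the other 5 of its group, for genes in 5 equal classes of exonic length (horizontal axis, shortest to longest). WT_Pam3 replicate 5 falls from 0.40 to -0.42, and KO_Pam3 replicate 6 is the other library with a visible slope.

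Ninj1 itself (ENSMUSG00000037966, GRCm38 chromosome 13, 49187485 to 49196244) checks the labels. In the WT_Pam3 libraries it was at 646 CPM in the lowest, 785 in the median and 1145 in the highest, which was replicate 5, and in the KO_Pam3 libraries at 409, 420 and 479. All 6 knockout libraries lay below all 6 wild-type libraries. The log2 difference was -0.92 ± 0.09 (SE, adjusted p = 4e-07), and -0.79 without WT_Pam3 replicate 5 (adjusted p = 6.3e-12). Transcripts were therefore lower but not absent, and the counts cover the whole gene, whichever part the allele removes. The same gap was present in media, where it measured -0.88. Ninj2, the other ninjurin, had at most 0.0985 CPM in any of the 12 libraries and was not tested.

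Of 14435 genes tested in KO_Pam3 against WT_Pam3, 189 (1.31%) were higher and 397 (2.75%) lower at an adjusted p under 0.05. The differences were small: 512 of these 586 genes differed by less than 1.5-fold, 11 were at least 2-fold higher and 4 at least 2-fold lower. The median log2 was 0.31 among the higher genes, -0.26 among the lower ones and -0.014 over all tested. Without WT_Pam3 replicate 5, 352 of 14566 genes were higher (2.42%) and 826 lower (5.67%), and 179 of the 189 and 381 of the 397 genes were called in the same direction in both fits. In the fit of all 24 libraries 129 tested genes (0.894%) had all 6 knockout libraries above all 6 wild-type ones and 236 (1.63%) all 6 below, and 89 of the 189 and 186 of the 397 were among them. The share of calls that were lower was 67.7%, but 34.8% when libraries were scaled by their totals alone, 50.0% without a filter on low counts and 57.9% with a filter of at least 1 CPM. A fit of the 12 stimulated libraries alone called 63 higher and 114 lower genes, and 470 and 771 when replicate 5 was left out of it. With the set sums 40 of 16618 genes were higher (0.241%) and 77 lower (0.463%), and 36 of the 189 and 77 of the 397 were among them. The set sums without replicate 5 gave 132 higher (0.794%) and 326 lower (1.96%), with 84 and 184 of the same genes. The number of higher genes was 125 without WT_Pam3 replicate 2, 116 without KO_Pam3 replicate 3 and 106 without KO_Pam3 replicate 4.

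**Figure D2:**
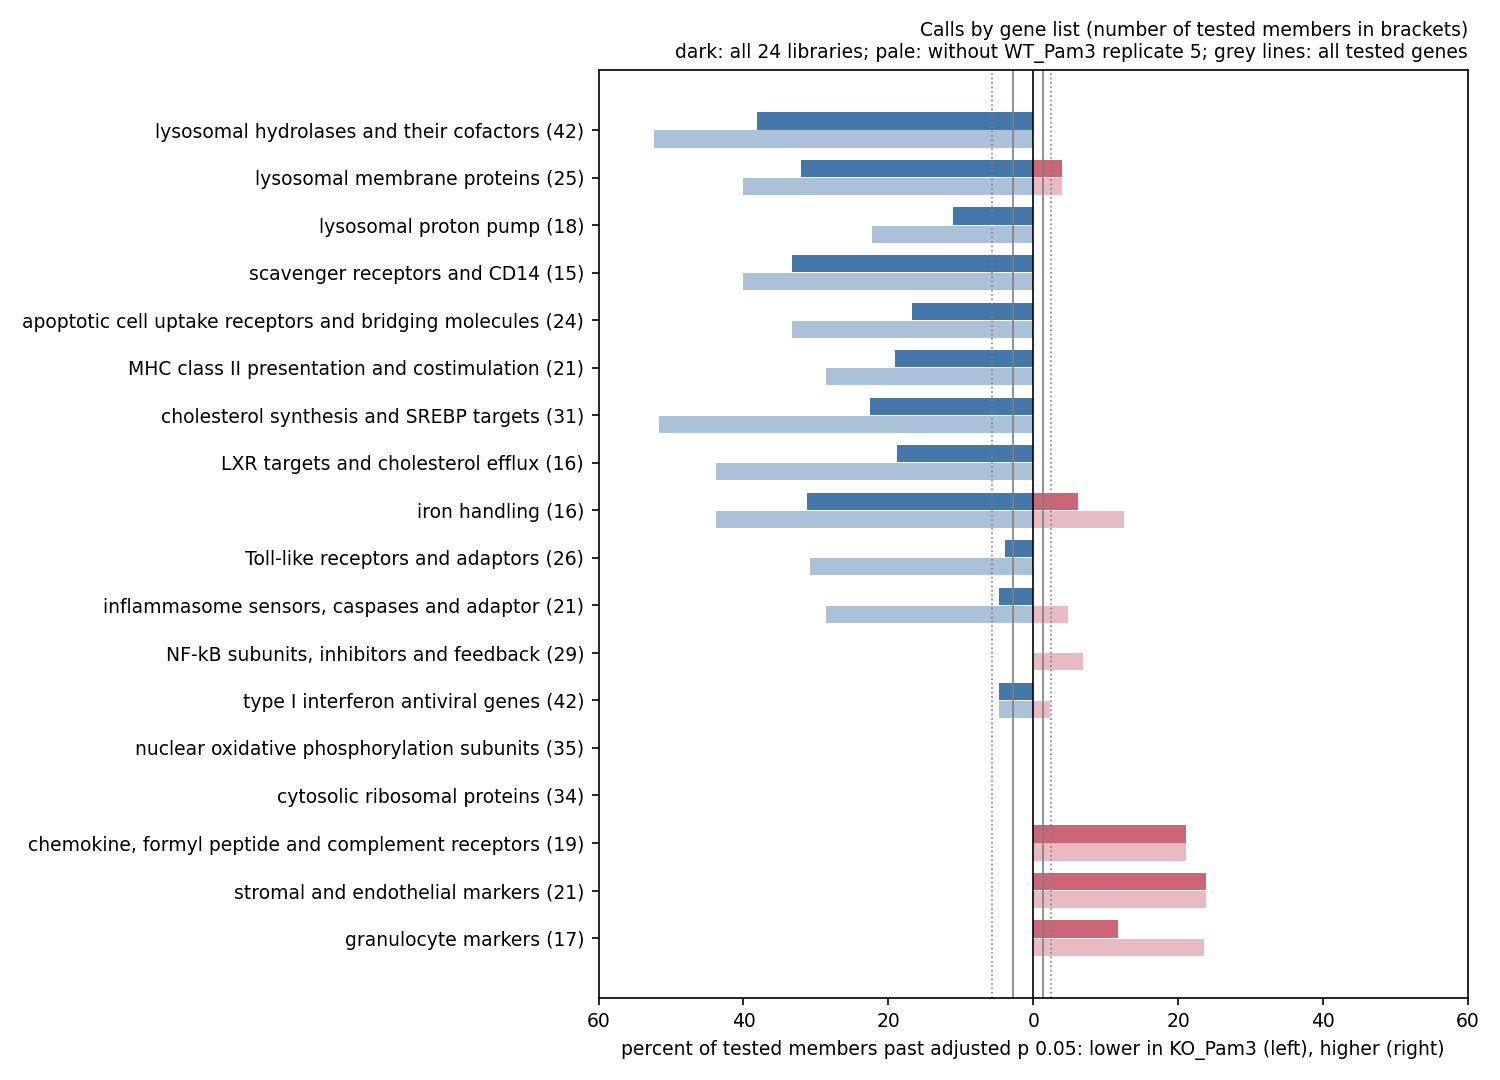
Share of the tested members of 18 gene lists (number in brackets) that were lower (left, blue) or higher (right, red) in KO_Pam3, in percent, with all 24 libraries (dark) and without WT_Pam3 replicate 5 (pale). Grey lines give the shares over all tested genes, 1.31% and 2.75% (solid) and 2.42% and 5.67% (dotted), and the hydrolases are the list with the longest bar on the lower side.

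Lysosomal genes were among the lower ones. Counts of list members, here and below, stand beside the shares over all tested genes. With all libraries 2.75% were lower and 1.31% higher, and without WT_Pam3 replicate 5 these were 5.67% and 2.42%. With the set sums they were 0.463% and 0.241%, and 1.96% and 0.794% without replicate 5. Of 42 lysosomal hydrolases and their cofactors 16 were lower and none higher, of 25 lysosomal membrane proteins 8 were lower and 1 higher, and of 18 subunits of the proton pump that acidifies the lysosome 2 were lower. Over the 85 genes the median log2 was -0.13 and 80 lay below 0. Without WT_Pam3 replicate 5 these were 22, 10 and 4 lower genes, with a median of -0.09. Prosaposin (Psap), the precursor of the activators that hand sphingolipids to their hydrolases, was at 13176, 13493 and 13713 CPM (lowest, median, highest) in WT_Pam3 and at 10669, 11407 and 12093 in KO_Pam3, with no overlap and a log2 difference of -0.25 ± 0.03 (adjusted p = 5.4e-05). Cathepsin B (Ctsb), a cysteine protease, went from a median of 17995 to 16120 CPM (log2 -0.18, adjusted p = 0.0093).

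Enzymes for several kinds of cargo were among the lower genes. Lysosomal acid lipase (Lipa), which frees cholesterol from its esters, had a median of 907 CPM in WT_Pam3 and 752 in KO_Pam3, with all libraries apart (log2 -0.28 ± 0.04, adjusted p = 0.0001). Galactosylceramidase (Galc) was lower by a log2 of -0.24, the heparan sulfate enzyme Naglu by -0.30, beta-glucuronidase (Gusb) by -0.17 and the hexosaminidase subunit Hexa by -0.22 (-0.14 without WT_Pam3 replicate 5). Heparanase (Hpse), which cleaves heparan sulfate and is not on the lysosomal lists, had the smallest adjusted p of all lower genes: it was at 85.3, 89.7 and 91.2 CPM in WT_Pam3 and at 65.1, 68.9 and 72.7 in KO_Pam3 (log2 -0.37 ± 0.03, adjusted p = 5.8e-08). Every knockout library lay well below the lowest wild-type one.

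Of the membrane proteins, Gpnmb, a glycoprotein induced when lysosomes are loaded, had a median of 5907 CPM in WT_Pam3 and 4904 in KO_Pam3 (log2 -0.27 ± 0.03, adjusted p = 2.4e-05). Cd68, the macrophage marker of lysosomes, was at 1391, 1486 and 1842 CPM in WT_Pam3 and at 1188, 1274 and 1319 in KO_Pam3 (log2 -0.28, and -0.22 without WT_Pam3 replicate 5, its highest library). Scarb2 (LIMP-2), the carrier of glucocerebrosidase, and Lamp1 were lower by log2 values of -0.19 and -0.14. Of the proton pump, the macrophage and osteoclast subunit Atp6v0d2 was lower by -0.31 (adjusted p = 0.0001), from a median of 39.4 to 31.9 CPM. The exception was Gpr137b, a lysosomal membrane protein that acts on mTORC1 through the Rag GTPases (chromosome 13, 13357620 to 13394014), which was higher. It was at 51.9, 55.1 and 58.8 CPM in WT_Pam3 and at 79.8, 85.7 and 87.3 in KO_Pam3, with a log2 of 0.62 ± 0.04 and the smallest adjusted p of all genes (2.9e-10). Its log2 in media was the same, 0.62.

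**Figure D3:**
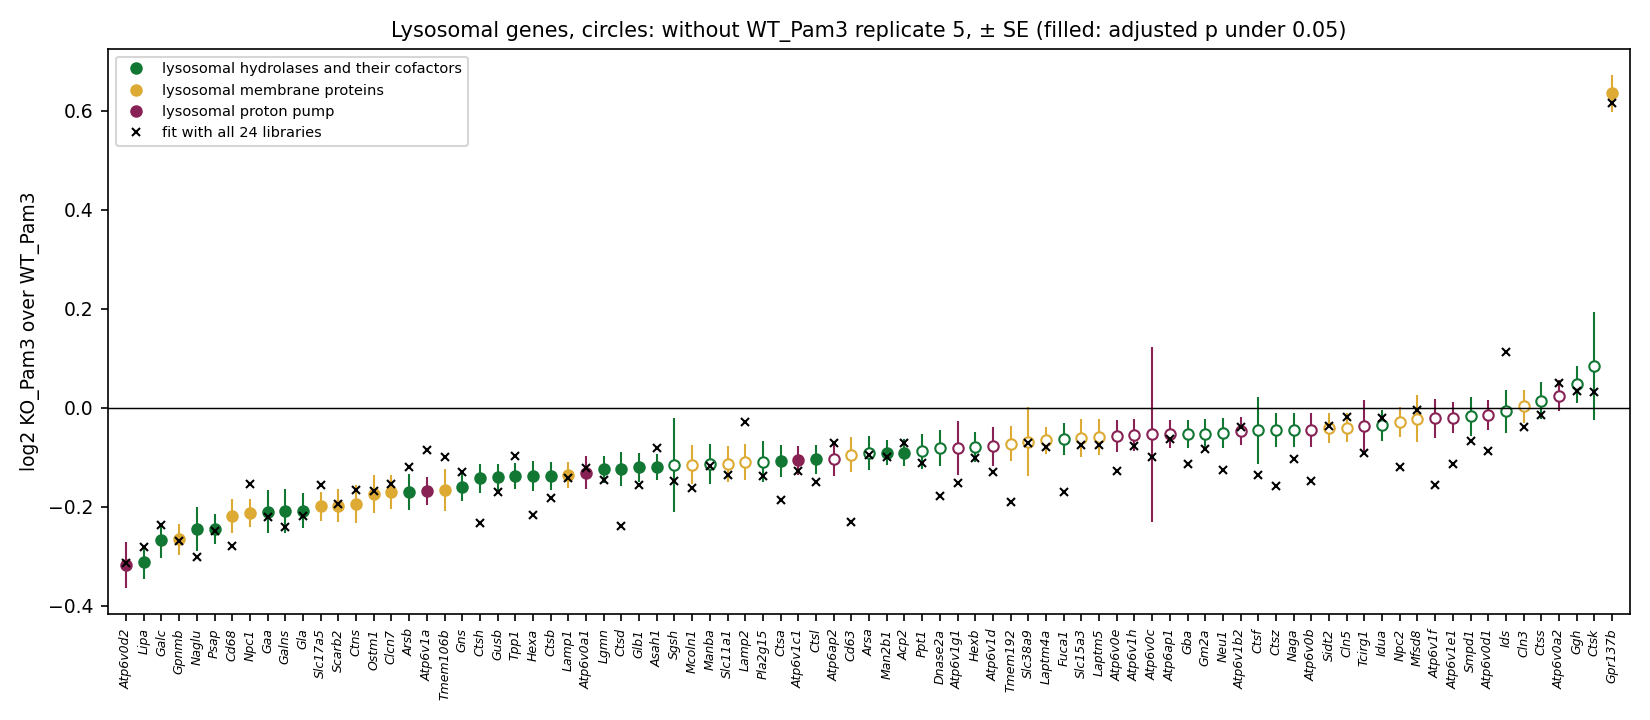
Log2 of KO_Pam3 over WT_Pam3 (vertical axis) for the 85 lysosomal genes (horizontal axis, ordered by value), without WT_Pam3 replicate 5 as circles with SE bars, filled where adjusted p is under 0.05, and with all 24 libraries as crosses. The circles of 79 of the 85 lie below 0, and Gpr137b lies alone at 0.63.

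Of 22 genes listed as MiT/TFE factors and mTORC1 regulators at the lysosome 4 were lower and none higher, with a list median of -0.06. Over all genes tested 2.75% were lower and 1.31% higher. None of these 4 calls was made with the set sums, with or without replicate 5. They were the Rag GTPase Rragc, Tsc22d1, the factor Tfec (log2 -0.17, adjusted p = 0.038) and Rragd, another Rag GTPase (log2 -0.24, adjusted p = 0.016). Tsc22d1 was counted because it is on the list, but it is neither a MiT/TFE factor nor a known mTORC1 regulator. The libraries of Tfec and Rragd overlapped between the genotypes. MiT/TFE factors bind the sequence TCACGTGA, which holds the E-box CACGTG; each reads the same on both strands. CACGTG was found in the RefSeq promoters (GRCm38.p6, 250 bases before to 50 after the start) of 8 of 20 lower lysosomal genes that had one (40.0%) and of 11 of 46 other tested lysosomal genes (23.9%), against 11.7% of all tested genes and 8.09% of all promoters in the table. TCACGTGA was in 2 of the 20, 7 of the 46 (15.2%) and 2.19% of all tested genes. Matches are a description and not binding sites. The pair with it, alpha-galactosidase A (Gla), a glycolipid hydrolase, and Clcn7, the lysosomal chloride-proton exchanger, are shown as the lower lysosomal genes in which the longer sequence was found; it was no more frequent among the lower genes than among the others. The stretches printed are chrX:134601133-134601255 on the minus strand for Gla, where TCACGTGA occurs at -228 to -221 and at -195 to -188 from the RefSeq start, and chr17:25133337-25133410 on the plus strand for Clcn7, where it lies at 7 to 14 after the start. Capitals mark TCACGTGA.
Gla: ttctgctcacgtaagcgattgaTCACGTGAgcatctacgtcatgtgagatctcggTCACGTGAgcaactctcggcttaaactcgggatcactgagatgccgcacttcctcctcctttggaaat
Clcn7: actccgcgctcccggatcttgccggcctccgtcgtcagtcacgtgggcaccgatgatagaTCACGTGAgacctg
Gla was at 125, 140 and 142 CPM in WT_Pam3 and at 111, 118 and 123 in KO_Pam3, with no overlap (log2 -0.22 ± 0.04, adjusted p = 0.0008). Clcn7 went from a median of 1448 to 1298 CPM, with overlap at the edge of the groups (log2 -0.15 ± 0.04, adjusted p = 0.016).

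The count of lower lysosomal genes depended on the fit. It was 26 of 85 in the fit of all 24 libraries, 14 with libraries scaled by totals alone, 10 without a filter and 10 with the 12 stimulated libraries alone, and 24 with the length slope of each library taken out (31 without WT_Pam3 replicate 5). By the set sums 1 of 85 was lower, and 12 without replicate 5. Of the genes named above, Hpse, Atp6v0d2 and Gpr137b passed with the set sums, while Psap, Lipa, Galc, Gpnmb, Cd68, Scarb2 and Gla did so only without replicate 5 and Ctsb, Naglu, Gusb, Hexa, Lamp1 and Clcn7 in neither case. Of the membrane proteins 5 in place of 8 were lower without WT_Pam3 replicate 2 or 4.

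Some receptors for dying cells and debris were also lower. Of 24 uptake receptors and bridging molecules for apoptotic cells 4 were lower and none higher (8 lower without WT_Pam3 replicate 5). Of 15 scavenger receptors 5 were lower and none higher (6 lower without it). Over all tested genes 2.75% were lower and 1.31% higher (5.67% and 2.42% without it). The list medians were -0.13 and -0.17. Mertk, the receptor tyrosine kinase with which macrophages engulf apoptotic cells (chromosome 2, 128698956 to 128802894), was at 26, 35.5 and 37.3 CPM in WT_Pam3 and at 19.3, 21.8 and 24.7 in KO_Pam3. The lowest wild-type library was replicate 5, and even it was above every knockout library. The log2 was -0.63 ± 0.06 (adjusted p = 7.1e-07), and -0.70 without that library. Gas6, the bridging ligand of MERTK, was lower too, from a median of 155 to 125 CPM (log2 -0.35 ± 0.05, adjusted p = 0.00015), and so was the inhibitory lipid receptor Cd300a (log2 -0.25, adjusted p = 0.0013). Among the set sums 2 of the 24 uptake genes, Mertk and Gas6, and 1 of the 15 scavenger receptors, Mrc1, were lower, and 8 and 3 without replicate 5.

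Among the scavenger receptors Mrc1, the mannose receptor, was at 124, 185 and 209 CPM in WT_Pam3 and at 138, 143 and 156 in KO_Pam3. The overlap came from replicate 5 alone: the other 5 wild-type libraries were at 178 to 209. Its log2 was -0.31 (adjusted p = 0.016), and -0.40 without replicate 5 (adjusted p = 7.9e-08). Stab1, a scavenger of modified lipoproteins, was lower by -0.20 and Cd5l, a secreted macrophage protein of the scavenger receptor family, by -0.28. Vcam1, an adhesion molecule, was lower by -0.43 ± 0.07 (adjusted p = 0.00024). Leaving out any 1 of 8 libraries other than WT_Pam3 replicate 5 (KO_Pam3 1, 2, 3 and 5 and WT_Pam3 1 to 4) reduced the 5 lower scavenger receptors to 2 or 3. Of the macrophage identity list 4 of 29 genes were lower (among them Mertk, Cd68 and Mrc1) and 3 higher (Itgam, Ccr2 and Bhlhe40), so the list did not move one way, and its summed level was 42340 to 47514 CPM in WT_Pam3 and 39925 to 41628 in KO_Pam3. In bulk RNA fewer cells of a kind and less RNA per cell cannot be told apart.

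Some genes of antigen presentation by MHC class II were lower. Of 21 such genes and costimulators 4 were lower and none higher, against 2.75% and 1.31% of all genes tested, with a median of -0.16 (6 lower and -0.08 without WT_Pam3 replicate 5, and 2 lower without KO_Pam3 replicate 2, 3 or 5). Of the 21, 1 was lower by the set sums, H2-DMb1, and 4 without replicate 5. Ciita, the factor that switches on class II genes, was lower by -0.35 ± 0.10 (adjusted p = 0.044), and by -0.45 without replicate 5 (adjusted p = 3.1e-05). The peptide exchange subunits H2-DMb1 and H2-DMa were lower by -0.32 and -0.29, and by -0.23 and -0.18 without replicate 5, and the maturation marker Cd83 by -0.23 (adjusted p = 0.0003). H2-M2, a class I-like gene outside that list, was at 48 to 54.3 CPM in WT_Pam3 and at 29.5 to 34.6 in KO_Pam3, one of the larger falls of the comparison (log2 -0.67 ± 0.07, adjusted p = 7.1e-07).

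Sterol genes were lower in part. Of 31 genes of cholesterol synthesis and other SREBP targets 7 were lower and none higher, all 31 lay below 0, and the median was -0.16. Without WT_Pam3 replicate 5 this became 16 lower with a median of -0.15. Among all tested genes 2.75% and 5.67% were lower in these fits. Insig1, the endoplasmic reticulum protein that retains SREBP when sterols are plentiful and is itself an SREBP target, was at 367, 379 and 405 CPM in WT_Pam3 and at 282, 300 and 319 in KO_Pam3 (log2 -0.34 ± 0.04, adjusted p = 1.5e-05). Lanosterol synthase (Lss) was as cleanly apart, at 141 to 147 against 118 to 126 CPM (log2 -0.23, adjusted p = 7.1e-05). Hmgcs1, which makes the HMG-CoA of the pathway, and the fatty acid synthase Fasn were called only without replicate 5, at -0.24 in both cases (adjusted p = 0.0018 and 8.6e-05), where that library was the lowest wild-type one. With the 12 stimulated libraries alone 2 of the 31 were lower, and with the set sums 2, among them Insig1, or 9 without replicate 5.

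The lipid chaperones Fabp4 and Fabp5 were lower by -0.60 ± 0.09 and -0.43 ± 0.06 (adjusted p = 0.00016 and 6.4e-05). Fabp4 was at 62.3, 65.1 and 99.3 CPM in WT_Pam3 and at 39, 47.1 and 55.7 in KO_Pam3, and replicate 5 was the high library; without it the log2 was -0.48. Both belong to the list of LXR targets and cholesterol efflux genes. Of its 16 tested genes 3 were lower, with Rxra as the other one (7 without replicate 5). None of these 3 is a cholesterol efflux transporter, and they say little about LXR targets and efflux as a whole. Of 17 genes of prostaglandin and lipid mediator metabolism 4 were lower and none higher, against 2.75% and 1.31% of all genes tested. Mgll, the lipase that turns monoacylglycerol into free fatty acid, was at 4.14, 5.86 and 6.84 CPM in WT_Pam3 and at 2.71, 3.01 and 3.38 in KO_Pam3 (log2 -0.92 ± 0.10, adjusted p = 2.5e-06), as large a difference as that of Ninj1. Thromboxane synthase (Tbxas1) and the cyclooxygenase Ptgs1 were lower by -0.28 and -0.33. Fabp4, Fabp5 and Mgll passed with the set sums, with or without replicate 5, and Ptgs1 did not.

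Several iron genes were called. Of 16, 5 were lower and 1 higher, against 2.75% and 1.31% of all genes tested. Only 2 or 3 were lower when any 1 of KO_Pam3 replicates 1 to 5 or WT_Pam3 replicate 2 was left out. Tfrc, the transferrin receptor that brings iron in, was at 254, 442 and 466 CPM in WT_Pam3 and at 262, 304 and 318 in KO_Pam3. Replicate 5, at 254, lay below every knockout library, and the other 5 wild-type libraries were at 425 or more. The log2 was -0.48 ± 0.09 (adjusted p = 0.0025), and -0.58 without replicate 5 (adjusted p = 4.4e-10). The endosomal ferrireductase Steap3 (log2 -0.26), the iron exporter Slc40a1 (-0.22) and haem oxygenase Hmox1 (-0.17, and -0.11 without replicate 5) were lower, and the metal importer Slc39a14 was higher (0.24, adjusted p = 0.043, and 0.16 without replicate 5, its lowest wild-type library); it was not called without any 1 of 8 other libraries. With the set sums 1 of the 16 was called, Tfrc, and without replicate 5 there were 3 lower and 2 higher. Of 17 purinergic genes 3 were lower, among them the nucleotide-degrading ectoenzymes Entpd1 (CD39), at 30.1 to 31.6 CPM in WT_Pam3 and 21.4 to 27.7 in KO_Pam3 (log2 -0.33 ± 0.05, adjusted p = 6.6e-05), and Enpp1 (log2 -0.42 ± 0.06, adjusted p = 4.6e-05).

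**Figure D4:**
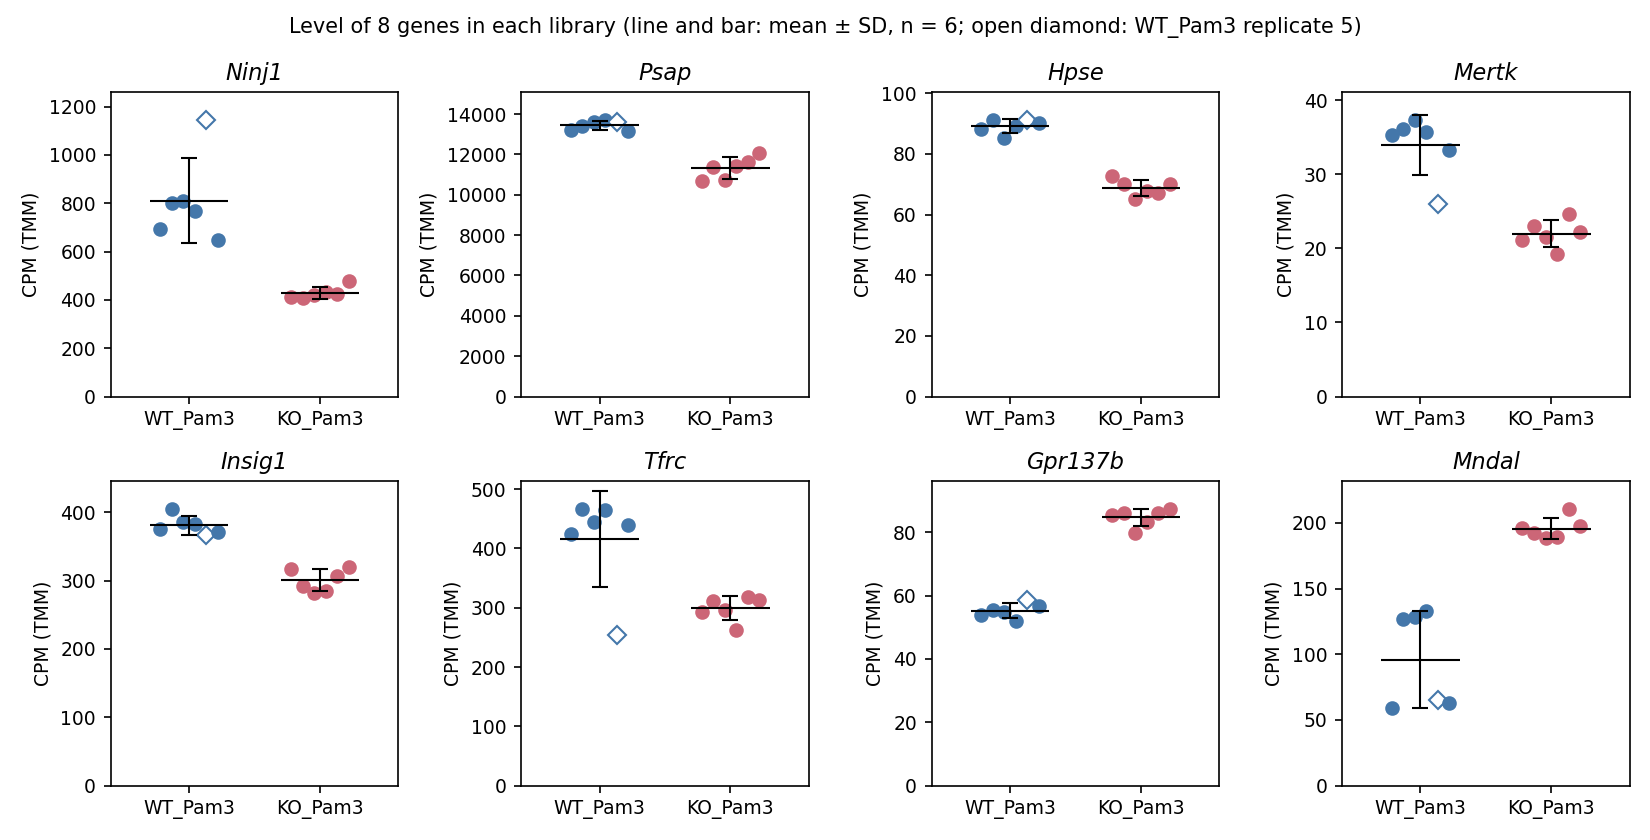
CPM on trimmed-mean scaled library sizes (vertical axis, from 0) of 8 genes in each of the 6 WT_Pam3 (blue) and 6 KO_Pam3 (red) libraries, with mean and SD and with WT_Pam3 replicate 5 as an open diamond. The genotypes are apart in every panel but Tfrc, where the diamond lies below the knockout libraries, and the wild-type libraries of Mndal sit at separate levels.

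Tlr2, Tlr1 and Myd88, through which Pam3 acts, were not called with all libraries or without WT_Pam3 replicate 5. Of 26 Toll-like receptors and adaptors 1 was lower, Cd180 (log2 -0.22, adjusted p = 0.033), a TLR homologue that restrains TLR4. Tlr2 had a median of 973 CPM in WT_Pam3 and 963 in KO_Pam3 (log2 -0.03 ± 0.04, adjusted p = 0.76), and Tlr1 and Myd88 had log2 values of -0.02 and -0.04. Without WT_Pam3 replicate 5, 8 of the 26 were lower, among them the coreceptor Tlr6 (-0.14, adjusted p = 0.038), Tlr4 (-0.27, adjusted p = 0.00017) and Tlr9 (-0.31, adjusted p = 0.0041). The share of all tested genes that were lower was 5.67% in that fit, and 2.75% with all libraries. Of 29 NF-kB subunits, inhibitors and feedback genes none was called by edgeR with all libraries, 1 was higher by DESeq2, and 2 were higher by edgeR without replicate 5.

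Inflammasome genes, which lead to the gasdermin pores upstream of NINJ1, gave 1 call with all libraries. Of 21 sensors, caspases and adaptors 1 was lower. Nlrp3 (-0.01 ± 0.05), Casp1 (-0.13 ± 0.06), Casp4 (-0.16 ± 0.07), Pycard (-0.06 ± 0.09) and Gsdmd (-0.10 ± 0.06) did not pass, with adjusted p from 0.24 to 0.94. WT_Pam3 replicate 5 was the lowest wild-type library for Nlrp3 and the highest for the other 4. Without it 6 of the 21 were lower, among them Aim2 (-0.19, adjusted p = 0.0083), and 1 was higher. In that fit 5.67% of all tested genes were lower and 2.42% higher, against 2.75% and 1.31% with all libraries.

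Cytokine transcripts gave no common direction. Tnf was at 6405, 7574 and 7871 CPM in WT_Pam3 and at 6390, 6472 and 6933 in KO_Pam3 (log2 -0.16 ± 0.07, adjusted p = 0.21), and Il6 had a log2 of 0.01 ± 0.07. Il1b was at 3963, 4262 and 5142 CPM in WT_Pam3 and at 4841, 5051 and 5403 in KO_Pam3, and did not pass (log2 0.21 ± 0.13, adjusted p = 0.44). Without replicate 5, the highest wild-type library, all 6 knockout libraries were above the other 5, at 3963 to 4460 CPM, and the log2 of 0.26 had an adjusted p of 0.057. Il1a (0.15 ± 0.08) and Il18 (0.05 ± 0.07) did not pass. Of 14 IL-1 family genes 2 were higher, the IL-33 receptor Il1rl1 (0.85, adjusted p = 0.034) and the cytokine Il1f9, also called IL-36 gamma (0.42, adjusted p = 0.045), both at low levels; without replicate 5 Il1rl1 had an adjusted p of 0.058.

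Of 23 other cytokine genes 3 were higher and 2 lower, against 1.31% and 2.75% of all genes tested. The IL-6 receptor Il6ra was at 18.8 to 26.7 CPM in WT_Pam3 and at 27.1 to 31.6 in KO_Pam3 (log2 0.31 ± 0.06, adjusted p = 0.0015), and the IL-6 family cytokine Lif was higher by 0.63 from a median of 1.61 CPM. Il15, which sustains NK and memory T cells, was lower, from a median of 147 to 114 CPM (log2 -0.33 ± 0.06, adjusted p = 0.0021), and so was the IL-12 subunit Il12a (-0.27, adjusted p = 0.048). The chemokines Ccl8 (-0.52 ± 0.08, adjusted p = 0.00025) and Cxcl9 (-0.40 ± 0.10, adjusted p = 0.017) were lower. The 14 CC and 12 CXC chemokine genes gave 3 lower calls and no higher one. By contrast 4 of 19 chemoattractant receptors were higher and none lower, among them the monocyte receptor Ccr2 (0.37 ± 0.09, adjusted p = 0.012), Ccr1 (0.27) and the prostacyclin receptor Ptgir (0.17). With the 12 stimulated libraries alone none of the 4 passed, and 2 passed without KO_Pam3 replicate 2 or 5 or WT_Pam3 replicate 3 or 4. Il6ra, Il15, Ccl8 and Ccr2 passed with the set sums, Lif and Cxcl9 did only without replicate 5, and Il12a, Ccr1, Ptgir, Il1rl1 and Il1f9 did not.

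Interferon-stimulated genes gave many calls between the genotypes in media and few after Pam3. Of 42 type I interferon antiviral genes 2 were lower in KO_Pam3, Irf1 (log2 -0.33 ± 0.06, adjusted p = 0.0021) and Irf5, and none was higher, with a median of -0.08. In media 34 of the same 42 were higher in the knockout, with a median of 0.57, against 277 genes of all tested (1.92%) that were higher there and 161 (1.12%) that were lower. Leaving WT_Pam3 replicate 5 out of the fit, which shares its estimate of the spread over the groups, gave 41 of the 42 higher in media, and 658 higher (4.52%) and 616 lower (4.23%) of all genes. KO_media replicate 1 was apart for these genes: their summed level was 8314 CPM in it, while the remaining KO_media libraries lay between 4311 and 5287 and the WT_media ones between 3353 and 4030. After Pam3 the sum was 20341 to 22201 CPM in the knockout and 21025 to 23811 in the wild type.

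The difference between both genotype effects was tested as an interaction. This test and the media contrast treated the 6 libraries of a group as independent, and no set sums were fitted for them. With all 24 libraries 25 genes had a positive interaction (0.173%) and 85 a negative one (0.589%), with 9 of the 42 interferon genes among the negative ones. Without WT_Pam3 replicate 5, 102 genes had a positive interaction (0.700%) and 442 a negative one (3.03%), and 36 of the 42 interferon genes were among the negative ones. Leaving out KO_media replicate 1 as well, an alternative chosen after seeing the data, kept 39 of the 42 higher in media (3.72% of all genes were) with a median of 0.37 and gave 37 negative interactions (2.83% of all genes). In that fit 11 of the 42 were lower after Pam3, against 6.44% of all genes. Of 23 p200-locus and guanylate-binding or immunity-related GTPase genes 14 were higher in media and 1 after Pam3, Mndal.

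**Figure D5:**
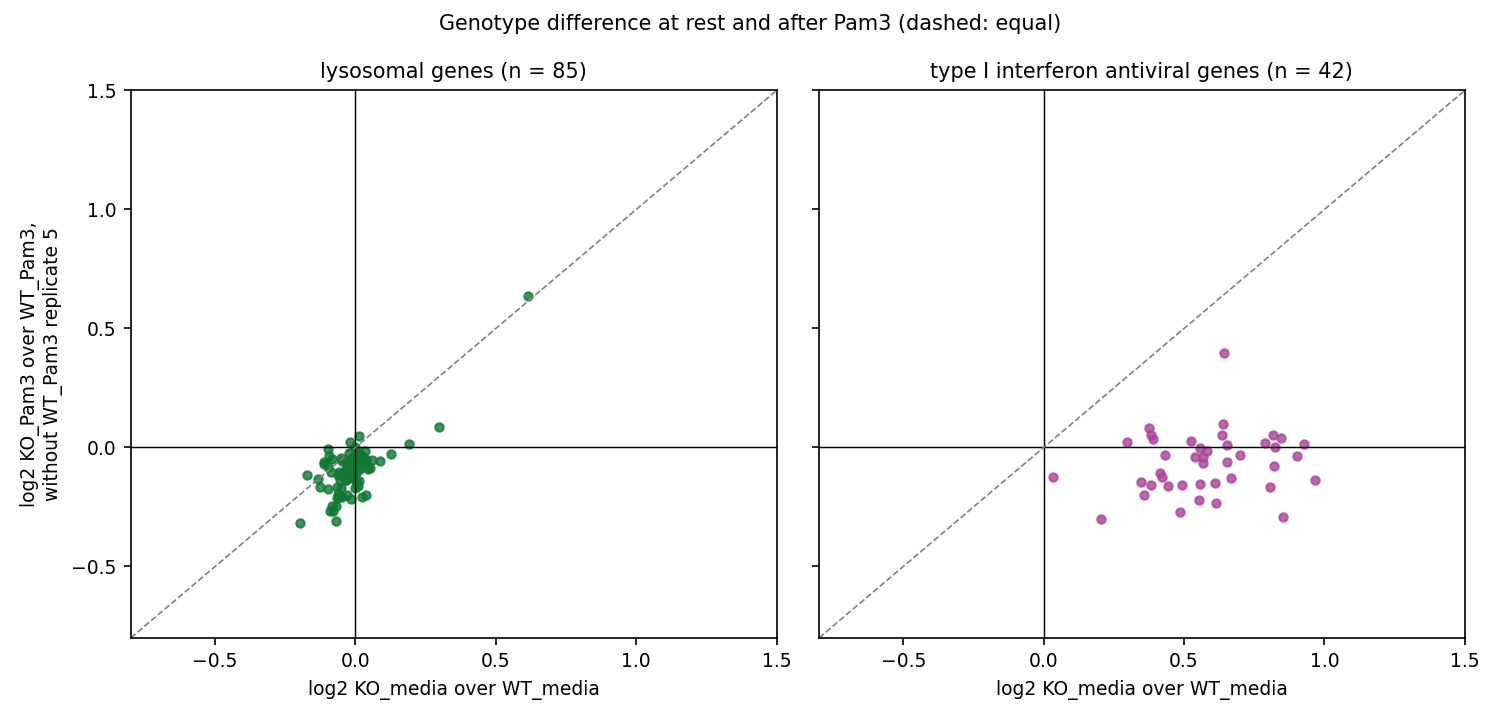
Log2 of knockout over wild type in media (horizontal axis) against the same after Pam3 without WT_Pam3 replicate 5 (vertical axis) for 85 lysosomal genes (left) and 42 type I interferon antiviral genes (right), 1 point per gene, with a dashed line where both are equal. Interferon genes lie to the right of 0 and near or below 0 on the vertical axis, and most lysosomal genes lie near 0 in media and below 0 after Pam3.

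In media the lysosomal and sterol lists had medians near 0. Among the 85 lysosomal genes 2 were higher and 3 lower in media, with a median of -0.02. With all 24 libraries 2 of the 85 passed the interaction as more negative after Pam3, 16 did without WT_Pam3 replicate 5, and 14 when KO_media replicate 1 was also out. Of the 31 sterol genes none was called in media by edgeR with all libraries and 3 were higher without replicate 5, and 4 and 12 passed the interaction in these fits. The uptake lists had calls in media: 3 of the 24 apoptotic uptake genes were lower there, and 3 of the 15 scavenger receptors lower and 1 higher, with Stab1 at a log2 of -0.28 (adjusted p = 0.0021). Of these lists 2 and 1 genes passed the interaction with all libraries, and 3 and 2 without replicate 5. Mertk had a log2 of -0.15 in media with all libraries and, without replicate 5, an interaction of -0.55 (adjusted p = 6.7e-07), and Psap -0.07 and -0.18 (adjusted p = 0.014). Over all genes, 150 of the 189 higher and 300 of the 397 lower ones had the same sign in media, 38 and 61 were also called there in the same direction with all libraries in the fit, and 3 of the lower ones were called higher there. These 3 were Calhm6, a channel-like membrane protein, the UDP-sugar receptor P2ry14 and Cdkn1a, the cell cycle inhibitor p21. Cdkn1a was higher in media (0.24, adjusted p = 0.03) and lower after Pam3 (-0.22, adjusted p = 0.043), with an interaction, fitted without replicate 5 as are those that follow, of -0.44 (adjusted p = 0.0025). Il1a was lower in media (-0.58, adjusted p = 0.046) and had a positive interaction of 0.69 (adjusted p = 0.012). Its media levels were low and overlapped, at 1.11 to 1.33 CPM in WT_media and 0.424 to 1.31 in KO_media. After Pam3 it was at 514 to 665 CPM in WT_Pam3 and 642 to 739 in KO_Pam3. Tlr2 and Myd88 were higher in media, by 0.21 and 0.19, with interactions of -0.25 and -0.20 (adjusted p = 0.0062 and 0.015).

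The formins Fmnl3 and Fmnl1, which build actin filaments, were at 34.6 to 37 against 42.2 to 45.7 CPM (log2 0.29 ± 0.03, adjusted p = 3.9e-06) and higher by 0.29 ± 0.04 (adjusted p = 7.8e-05). Arap3, a GTPase-activating protein, was higher by 0.46, the exchange factor Spata13 by 0.56 and the sialomucin Spn (CD43) by 0.36, each with no overlap between groups. Fmnl1, Arap3, Spn and Itgb7 were also higher in media, by 0.16, 0.24, 0.26 and 0.64. Of 26 integrins and adhesion molecules 3 were higher: Itgb7 (0.53 ± 0.08, adjusted p = 0.00018), the fibronectin receptor subunit Itga5 (0.16) and Itgam (CD11b, 0.17). Vcam1 was the 1 lower gene of that list. Shares over all tested genes were 1.31% higher and 2.75% lower. Fmnl3, Fmnl1, Arap3, Spata13, Spn and Itgb7 passed with the set sums, Itga5 and Vcam1 only without replicate 5, and Itgam did not.

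Pdgfb, a growth factor for mesenchymal cells, went from a median of 6.1 to 9.75 CPM (log2 0.62 ± 0.08, adjusted p = 2.2e-05), and the collagenase Mmp13 from 348 to 484 CPM (log2 0.48 ± 0.10, adjusted p = 0.0032). The hyaluronan synthase Has1 was at 2.1 to 4.72 CPM in WT_Pam3 and at 5.36 to 6.37 in KO_Pam3 (log2 0.84 ± 0.15, adjusted p = 0.0012). Trem1, a receptor that amplifies TLR signalling, and its neighbour Trem3 were higher by 0.72 and 0.74, and the tissue plasminogen activator Plat by 0.72. All were at low levels, with medians of 2.05, 0.59 and 0.798 CPM in WT_Pam3 and 3.2, 1.03 and 1.34 in KO_Pam3. Urokinase (Plau), a relative of Plat, was lower by -0.63 ± 0.08 (adjusted p = 7.7e-06). The chitinase-like protein Chil3 was higher by 0.41 and the Src family kinase Fgr by 0.36. Prkcd, a protein kinase C isoform, was 1 of the 8 largest gains of mean CPM among the called genes, from a median of 1348 to 1459 CPM (log2 0.12, adjusted p = 0.016). The calls of Pdgfb, Mmp13, Plau and Chil3 were also made with the set sums, those of Has1, Trem1 and Fgr only without replicate 5, and those of Plat, Trem3 and Prkcd in neither case.

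Transcripts typical of other cells moved as well. Of 21 stromal and endothelial markers 5 were higher and none lower, with a median of 0.43: the collagens Col6a1, Col4a1, Col1a2 and Col3a1 and the proteoglycan Dcn, at log2 values of 0.56 to 0.65. The whole list of 24 summed to 176 to 263 CPM in WT_Pam3 and to 247 to 330 in KO_Pam3. Col1a2 was at 7.74, 9.51 and 12 CPM in WT_Pam3 and at 11.6, 15.2 and 17.9 in KO_Pam3, with overlap. Without KO_Pam3 replicate 3 or 4 only 1 of the 21 was called, without KO_Pam3 replicate 1 only 2, and without WT_Pam3 replicate 4 only 3. In media 11 of the 21 were higher, against 1.92% of all genes tested there. After Pam3 1.31% of all genes tested were higher. These 5 calls were not made with the set sums, with or without replicate 5. Of 17 granulocyte markers 2 were higher, S100a8 and Ngp (log2 0.29 and 0.43), and 4 without WT_Pam3 replicate 5, among them S100a9 (0.44, adjusted p = 1.1e-05). The list of 19 summed to 921 to 969 CPM in WT_Pam3 and 923 to 1086 in KO_Pam3. Most of this came from Csf3r, Mmp9 and Lcn2, at 524 to 609, 190 to 272 and 101 to 161 CPM over the 12 libraries. The sum was 243 to 260 CPM in WT_media, and it says little about the content of granulocytes. The mature neutrophil genes Ly6g, Retnlg and Cxcr2 were at most at 0.0348, 0.111 and 0.181 CPM.

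Of 11 lymphocyte markers tested 3 were lower and none higher, against 2.75% and 1.31% of all genes tested. Ighm, the immunoglobulin mu constant region, was at 37.6 to 50.3 CPM in WT_Pam3 and at 26.9 to 30.9 in KO_Pam3 (log2 -0.49 ± 0.06, adjusted p = 4.5e-06), Cd4 was lower by -0.40 (adjusted p = 0.00053) and Igkc by -0.47 (adjusted p = 0.048, and 0.057 without replicate 5). Cd22, a B cell surface lectin outside that list, was lower by -0.44 (adjusted p = 1.4e-06), and Cd79a and the T cell gene Cd3e were at most at 0.297 and 0.0362 CPM. The 23 markers summed to 92.9 to 105 CPM in WT_Pam3 and to 77 to 87.7 in KO_Pam3. With the set sums Ighm and Cd22 passed, Cd4 did only without replicate 5 and Igkc did not. The part that these markers had in the other results was not tested.

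Some of the largest differences were in genes whose libraries fell at separate levels within a genotype. Mndal, an interferon-inducible p200-family gene (chromosome 1, 173849126 to 173942491), was at 58.8, 63 and 65.4 CPM in WT_Pam3 replicates 1, 6 and 5 and at 127, 128 and 133 in replicates 2, 3 and 4, while all KO_Pam3 libraries were at 189 to 210 (log2 1.03 ± 0.21, adjusted p = 0.0033). Unstimulated wild-type libraries also formed a low and a high set of 3, at 24.1 to 30.9 and 43 to 48.5 CPM. Diaph2, a formin on the X chromosome, did the same in the knockout. It was at 105, 116 and 117 CPM in KO_Pam3 replicates 4, 3 and 1 and at 23.7, 30.7 and 30.8 in replicates 6, 5 and 2, and at 164 to 176 in the wild-type libraries other than replicate 5, at 73.4. In KO_media it was at 7.25 to 9.2 CPM in 3 libraries and 37.3 to 38.8 in the other 3. Its log2 of -1.12 ± 0.41 did not pass (adjusted p = 0.14), and passed without replicate 5 (-1.26, adjusted p = 0.021). Capn11, a calpain protease gene, was at 1.02 to 1.22 CPM in KO_Pam3 replicates 1, 3 and 4 and at 0.313 to 0.425 in 2, 5 and 6, against at most 0.145 in the wild type, where 3 of the 6 libraries had no count (adjusted p = 0.04). KO_Pam3 replicates 1, 3 and 4 were thus the high set for both Diaph2 and Capn11, and they were also the 3 highest libraries for Col1a2. These are the sets of 3 that the order of the sample numbers gives, and so are the low and high sets of Mndal in WT_media and of Diaph2 in KO_media. With the set sums Mndal passed only without replicate 5, and Diaph2 and Capn11 did not pass with or without it.

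Other genes whose groups did not overlap were less abundant. Mtus2, a microtubule-associated gene, was at 2.19 to 4.52 CPM in WT_Pam3 and at 1.1 to 1.6 in KO_Pam3 (log2 -1.20 ± 0.18, adjusted p = 0.0001), and the kinesin Kif5c at 2.5 to 4.04 against 1.9 to 2.16 CPM (log2 -0.73 ± 0.09, adjusted p = 2.4e-05). Kif5c had a log2 of -0.09 in media and, without replicate 5, an interaction of -0.71 (adjusted p = 0.0002). For Mtus2 the log2 in media was -1.11. Among abundant genes, the adhesion molecule Cadm1 was lower by -0.40 ± 0.04 (adjusted p = 7.2e-07), the microsomal glutathione transferase Mgst1 by -0.34 ± 0.04 (adjusted p = 1e-05), the proton channel Hvcn1 by -0.25, the selenium carrier Selenop from a median of 3726 to 3164 CPM and the galactose-binding lectin Lgals3, whose groups overlapped, from 1402 to 1209 CPM (log2 -0.29, and -0.18 without replicate 5). Mtus2, Kif5c, Cadm1 and Mgst1 passed with the set sums, Selenop only without replicate 5, and Hvcn1 and Lgals3 did not.

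Of 190 annotated genes within 5 Mb of Ninj1 47 were tested, and 2 were higher, Fgd3 (log2 0.17) and Secisbp2 (0.12), and 2 lower, Rnf144b (-0.33, adjusted p = 0.0012) and Dtnbp1 (-0.30, and -0.18 without WT_Pam3 replicate 5), with a median of 0.01, against 1.31% and 2.75% of all genes tested. With the set sums Fgd3 and Rnf144b passed only without replicate 5, and Secisbp2 and Dtnbp1 did not pass. Nnt, which some C57BL/6 substrains carry with a deletion, was at 0.134 to 0.422 CPM in all 12 libraries, with no difference past the test (log2 0.14 ± 0.30, adjusted p = 0.87).

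Lists of housekeeping genes moved with replicate 5. Of 35 nuclear oxidative phosphorylation subunits none was called, but 34 lay below 0 with a median of -0.13, and without WT_Pam3 replicate 5 the median was 0.00 with 17 below 0. For 34 cytosolic ribosomal protein genes, with none called, the medians were -0.12 and 0.05. The lysosomal and sterol lists, in contrast, kept negative medians without it. Of 10 mitochondrially encoded transcripts 2 were lower, and 5 without replicate 5; the share of counts they took was 0.4144% in KO_Pam3 (mean, n = 6) and 0.4347% in WT_Pam3 (exact permutation test, two-sided, adjusted p = 0.3939 over 4 measures), and 0.4545% without replicate 5 (exact permutation p = 0.002165, adjusted p = 0.008658). Of 22 genes of arginine, nitric oxide and itaconate metabolism none was called in either fit.

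Genes called only without WT_Pam3 replicate 5 numbered 173 higher and 445 lower. Those among the higher ones whose 5 wild-type and 6 knockout libraries did not overlap included the stem cell antigen gene Ly6a (0.76, adjusted p = 0.018) and the acute-phase gene haptoglobin (Hp, 0.54, adjusted p = 8.6e-05). In Hp replicate 5 was at 61.8 CPM, above all knockout libraries (50.4 to 57.4), while the other 5 wild-type libraries were at 33.7 to 39.9. The median exonic length of the lower genes was 3840 bases with all libraries and 5443 without replicate 5, and that of the higher ones 5021 and 4206, against 3937 over all tested. With the length slope of every library taken out, an alternative chosen after seeing the data, 308 genes were higher and 444 lower, and 177 of the 189 and 352 of the 397 were among them.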

How the data were processed

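RNA-seq counts of 24 libraries were analysed, 6 in each of 4 groups taken from the titles, with replicates numbered in accession order. Per the labels' protocols, TruSeq RNA libraries were sequenced on a HiSeq instrument as single-end reads. GSNAP and GRCm38 are named in the submitters' processing notes. The deposited count column holds raw counts per gene model, per the file headers, and the deposited RPKM column, normalized by the authors, was not tested and none of its values is printed. Of 52636 gene models 147 had no symbol, with 0.00387% of counts. Symbols and coordinates come from GENCODE M21, promoters from RefSeq.

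Counts were scaled by TMM, filtered with filterByExpr and fitted over all 24 libraries with edgeR 4.0.16 (R 4.3.3) using the quasi-likelihood test with Benjamini-Hochberg adjustment at 0.05. A fit on simulated counts was checked first. Log2 differences carry the SE of the fit. Alternatives used DESeq2 1.42.0, limma 3.58.1 voom weights, other scalings and filters, fewer libraries and each library left out. The length-slope fits, the removal of KO_media replicate 1 and the counts summed over the first and last 3 libraries of a group by title number were chosen after seeing the data. The members and gene lists were chosen with earlier results of these data known. Genes were named by size and adjusted p among called genes whose 6 libraries lie apart (at least 20 counts), by change in CPM, by the smallest adjusted p per list, and by calls made only without WT_Pam3 replicate 5. Calhm6 was named after its value was seen, and Hpse, Cadm1 and Cd22 fall under the rule for the smallest adjusted p. Some genes are not reported here.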

Additional observations from a re-analysis of the deposited data

Results flagged for a closer look

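In 48 of 276 groups of 6 libraries, over the genes named in the report and the library measures, the highest or lowest library stood apart from the other 5, its gap to the nearest one taking more of the range of the group than Dixon's 95% critical value allows. Chance alone flags about 1 in 20 independent groups, but these groups share the same libraries. Part of the genes were also named because their call depended on WT_Pam3 replicate 5. The number flagged can therefore not be set against that rate. WT_Pam3 replicate 5 was the library apart in 41 of the 48. Its share of the range, in brackets, was as follows for a first set of genes: Ninj1 (0.67), Gusb (0.677), Ctsb (0.807), Ctsd (0.902), Hexa (0.938), Cd68 (0.724), Mertk (0.638), Stab1 (0.752), Mrc1 (0.64), H2-DMb1 (0.83), H2-DMa (0.794), Mvd (0.845), Hmgcs1 (0.678), Fasn (0.713), Fabp4 (0.848), Fabp5 (0.7), Tfrc (0.804), Hmox1 (0.87) and Slc39a14 (0.729). For the rest it was as follows: Ccl8 (0.759), Nlrp3 (0.692), Casp1 (0.731), Casp4 (0.729), Pycard (0.879), Gsdmd (0.738), Tlr1 (0.734), Tlr4 (0.878), Myd88 (0.688), Diaph2 (0.888), Ccr2 (0.681), Col4a1 (0.665), Dcn (0.694), S100a8 (0.82), S100a9 (0.833), Ighm (0.77), Itgb7 (0.865), Lgals3 (0.862), Dtnbp1 (0.664) and Hp (0.781). The same library stood apart in the percent of counts from mitochondrially encoded genes (0.738) and in the percent taken by the 10 most abundant genes (0.958). The cause was not tested. Single KO_Pam3 libraries stood apart in Ninj1 (0.647, replicate 6), Slc40a1 (0.654, replicate 3), Il1rl1 (0.648, replicate 1), Itgb7 (0.804, replicate 4), Trem1 (0.699, replicate 3), Mtus2 (0.687, replicate 2) and Fos (0.809, replicate 2).

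Of 134 named genes tested, 16 had a genotype effect that differed between Pam3 and media with all 24 libraries (edgeR interaction, adjusted p under 0.05). Over all 14435 genes tested 25 had a positive interaction (0.173%) and 85 a negative one (0.589%). Many named genes were chosen for their difference after Pam3, which is part of the interaction, so these shares cannot be compared. The interaction log2, the knockout effect in Pam3 minus that in media, was negative for Gla (-0.24), Scarb2 (-0.23), Hpse (-0.24), Mertk (-0.48), Cd300a (-0.26), Insig1 (-0.30), Lss (-0.21), Il15 (-0.43), Irf1 (-0.53), Tlr2 (-0.24), Ighm (-0.47), Kif5c (-0.64) and Cdkn1a (-0.46). It was positive for Il1a (0.73), Fmnl3 (0.21) and Secisbp2 (0.21). Il1a was at most at 1.33 CPM in any media library.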

How the results depend on the processing

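With all 24 libraries 189 genes were higher and 397 lower. The higher count was 412 with libraries scaled by totals alone and 453 with voom quality weights. With the 12 stimulated libraries alone it was 63, and 470 when WT_Pam3 replicate 5 was left out of them. It was 40 with counts summed per set of 3 by title number, and 132 with these set sums without WT_Pam3 replicate 5. With the length slope taken out it was 308, and 474 when WT_Pam3 replicate 5 was also left out. The lower count was 220 with totals alone, 183 without a filter, 603 with DESeq2 and 997 with voom weights. It was 114 with the 12 stimulated libraries alone, and 771 when replicate 5 was left out of them. The set sums gave 77 lower genes, and 326 without replicate 5. With the length slope taken out and replicate 5 left out the lower count was 686. Leaving out each library in turn gave 106 to 352 higher and 267 to 826 lower genes. The causes were not tested. The knockout excess in genes with a count was 264.2 with all 12 libraries (exact permutation adjusted p = 0.0476) and 253.2 without WT_Pam3 replicate 5 (adjusted p = 0.0606). The difference in the percent taken by the 10 most abundant genes was -0.6972 and -0.2615 (adjusted p = 0.0476 and 0.0433), and the difference in percent mitochondrially encoded became -0.04012 (adjusted p = 0.00866). No named gene that was called changed sign under any alternative. Of the named genes called, 41 of 108 were called with the set sums and 71 with those without WT_Pam3 replicate 5, 59 of 107 with the 12 stimulated libraries alone, 91 of 108 with totals alone, 81 of 108 without a filter and between 79 and 106 of 108 with a library left out. No paired analysis was possible because the labels give no number that libraries of different genotype share. The spread between libraries limits the detectable size: the biological coefficient of variation was 8.21% with all libraries and 4.89% without WT_Pam3 replicate 5.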
